A study of Mus musculus with 18 samples.

Results

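RNA of the polysome fraction was compared with RNA of the RNP fraction over 3 stages of sperm formation together (pachytene spermatocytes, then round and elongating spermatids), to find the RNAs that leaned to the same fraction at all 3 stages. All 18 libraries of the series entered the comparison, 3 polysome and 3 RNP libraries for each cell type. The cells came from adult wild type C57BL/6 mice, were purified from pooled testes by sedimentation, and were lysed in the presence of cycloheximide, which holds ribosomes on mRNA. The cytoplasm was then run on a sucrose gradient, whose light fractions were pooled as RNPs and whose heavy fractions were pooled as polysomes. The monosome fractions between them were not analysed here. The labels number the libraries 1 to 3 within a group and do not say which animals stand behind a number, so that the p-values measure the spread between these libraries.

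Polysomes are mRNAs that carry several ribosomes and are being translated, and RNPs are mRNAs bound by proteins without ribosomes. Male germ cells stop transcription when the nucleus of the spermatid begins to condense. The mRNAs of late sperm proteins are therefore made early and kept in RNPs until they are needed. Y-box proteins such as YBX1 and YBX2 coat stored mRNAs in these cells. Many mRNAs of the translation machinery start with a run of pyrimidines at the 5′ end, the TOP motif, through which their translation is held back when the TOR kinase is inactive.

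Levels are given as scaled FPKM, the length- and depth-corrected fragment value that Cufflinks assigned to the spliced transcripts of a gene, brought to one scale by the median ratio over 6912 genes. Differences are log2(polysome + 1) minus log2(RNP + 1) in scaled FPKM, averaged over the 3 stages, so that a positive value means higher in polysomes and a negative value higher in RNPs. The scaling sets the typical mRNA near 0: the median difference over all genes was 0.12 with scaling and 0.78 without it, and every lean below is relative to the other mRNAs of the same library and not an amount per cell. A gene was called where the adjusted p was under 0.05 and the sign was the same at all 3 stages.

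Some libraries stood apart from their group. Markers of elongating spermatids, protamines among them, summed to 6124 to 46260 in elongating libraries and to 27.1 to 3122 in pachytene libraries. Sertoli cell markers summed to 1708 and 1570 in the round polysome and RNP libraries numbered 2 and to 65.8 to 138 in the other 4 round libraries, and none of the 14 markers was at 0 in every library of the round groups. In the same 2 libraries the elongating markers summed to 85.4 and 105, against 1139 to 5789 in the other round libraries. Pachytene RNP library 2 stood apart in the same way, with a Sertoli sum of 2207 against 376 and 213 in the other pachytene RNP libraries and an elongating sum of 74.1 against 3122 and 1544. Pachytene polysome libraries 1 to 3 had Sertoli sums of 148, 712 and 975 and elongating sums of 867, 27.1 and 223. Library 2 of that group thus had the lowest elongating sum of all 18 libraries. The part of these cells in the results was not tested, and counts without both round libraries numbered 2 are given beside the main ones.

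Of 14012 genes tested, 163 leaned to polysomes, which is 1.16% of the genes tested, and 111 leaned to RNPs, which is 0.792%. An unadjusted p under 0.05 was reached by 2445 genes. No gene that passed the adjusted p had signs that differed between stages. In 77 genes (0.55%) every polysome library was above every RNP library within each stage, and 52 of the 163 polysome-leaning genes were among them; in 44 genes (0.314%) every RNP library was above, and 32 of the 111 RNP-leaning genes were among them. Without both round libraries numbered 2, 424 genes leaned to polysomes and 240 to RNPs, and these held 158 of the 163 and 107 of the 111. With the library number within a stage as a block, 456 and 307 were called, with 162 of the 163 and 109 of the 111 among them. Leaving out 1 library at a time gave 74 to 274 polysome-leaning and 45 to 190 RNP-leaning genes, the fewest without an elongating library, and without all elongating libraries 6 and 1 were called. Without scaling, the calls were 4449 to polysomes and 37 to RNPs, so that 99.2% of the calls pointed to polysomes, against 59.5% with it.

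**Figure D1:**
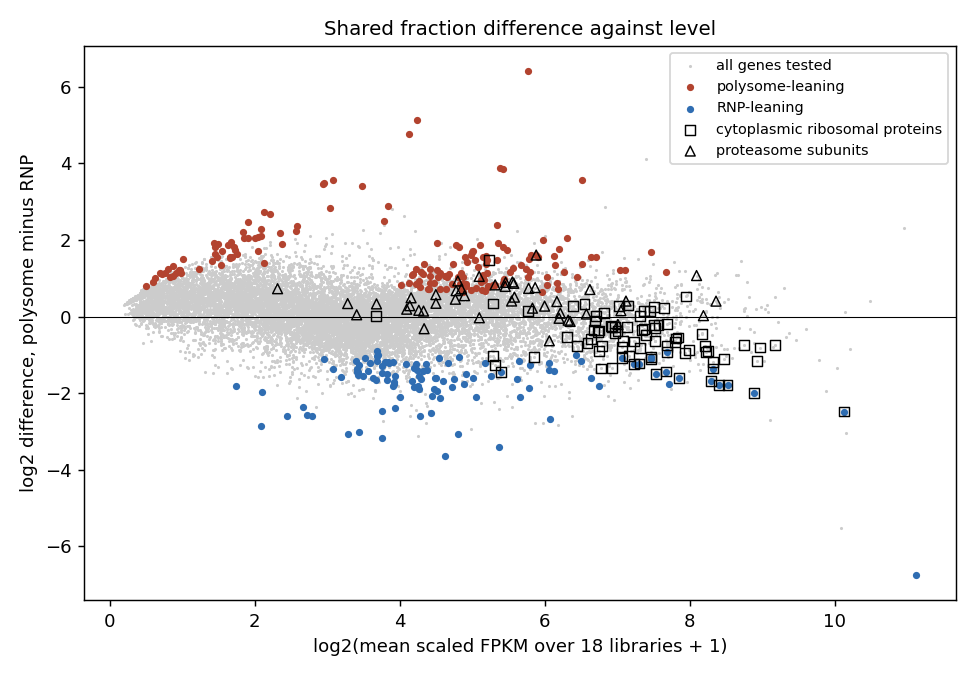
Log2 difference between polysomes and RNPs (vertical axis) against the log2 of the mean scaled FPKM over 18 libraries plus 1 (horizontal axis), with 1 point for each of the 14012 genes tested. The 163 polysome-leaning genes are red and the 111 RNP-leaning genes are blue; the open squares of the cytoplasmic ribosomal proteins lie mostly below 0 and the open triangles of the proteasome subunits mostly above it.

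The gene value rests on transcripts that Cufflinks assembled across a splice junction, and the completeness of the assembly moved with the calls. The transcripts matched to genes held 1.05% to 8.13% of the summed FPKM of an RNP library and 4.26% to 11.1% in polysome libraries. Most of the FPKM therefore lies outside the gene values, and the part of these unequal shares in the calls was not tested. In polysome-leaning genes the assembled transcripts covered a median of 39.6% of the annotated length in polysomes and 67.3% in RNPs, and in RNP-leaning genes 60.8% in polysomes and 29.9% in RNPs. Over all genes tested the medians were 60.2% and 46.7%. The FPKM of a short piece is divided by the length of that piece, and the values of several pieces of one gene add up, so a second value was computed as the mean FPKM over the annotated exonic bases of a gene with all pieces counted, unspliced ones included. This value was chosen after the data were examined. It called 187 polysome-leaning genes (1.28% of 14633 tested) and 289 RNP-leaning genes (1.97%).

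By both values, 113 genes were called with the same sign, 66 of the 163 polysome-leaning genes and 47 of the 111 RNP-leaning genes. The sign was kept in 133 of 137 polysome-leaning genes and 103 of 111 RNP-leaning genes that the second value could test. In the spliced value, 23 polysome-leaning genes were listed at 0 in all RNP libraries and 2 RNP-leaning genes in all polysome libraries. Every RNP library had fewer spliced transcripts matched to genes (15207 to 21594) than any polysome library (21617 to 24518). The part of this gap in the zeros and in the calls was not tested. Both values come from the same libraries, so the second is no independent repeat. Of the 14 largest differences in each direction, 7 to polysomes and 6 to RNPs were also called by exonic bases. With only transcripts that hold a whole annotated intron chain, 13 genes leaned to polysomes and 20 to RNPs, and of the 63 called genes named in the text that still had a value, 24 changed sign, 31 kept the sign without passing and 8 stayed called. *Rps29* (-2.51), *Rpl37a* (-1.71) and *Ybx1* (-1.88) were among those that stayed called.

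**Figure D2:**
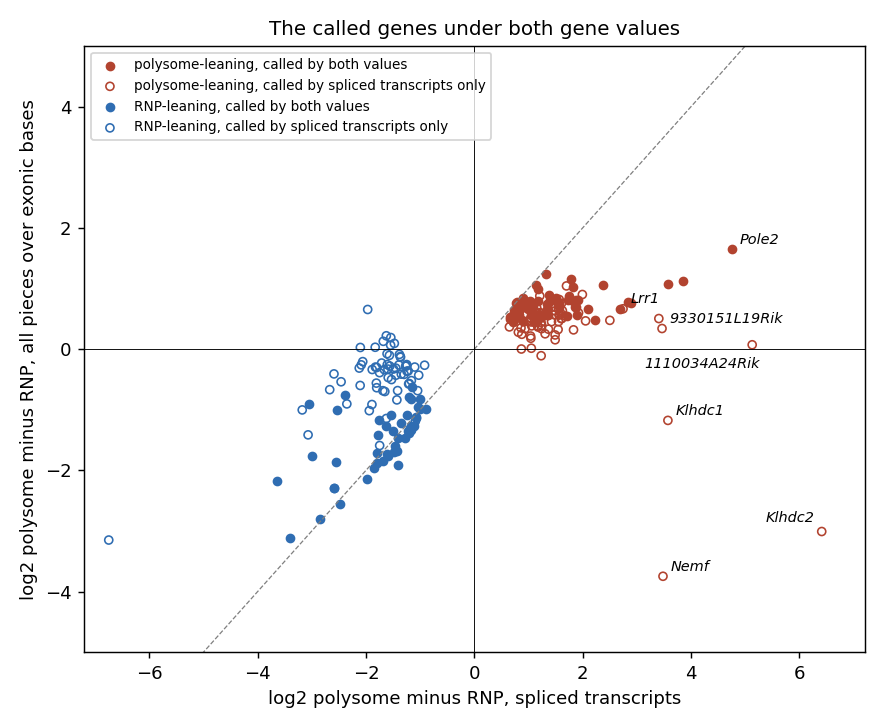
Log2 polysome minus RNP from spliced transcripts (horizontal axis) against the same difference from all pieces over exonic bases (vertical axis), for the called genes that both values tested. Filled points are the 66 polysome-leaning (red) and 47 RNP-leaning (blue) genes called by both values, open points those called from spliced transcripts only, and the dashed line marks equal values; *Nemf* was called in the opposite direction by exonic bases. The named genes are neighbours on chromosome 12 whose spliced value was 0 in every RNP library.

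The list with the most RNP-leaning genes was that of the cytoplasmic ribosomal proteins, the proteins of the ribosome itself. Of 82 such genes tested, 16 (19.5%) leaned to RNPs and 0 to polysomes, against 0.792% and 1.16% of all genes by limma. At an unadjusted p under 0.05, 37 of them were higher in RNPs and 1 in polysomes. Their median difference was -0.65, against 0.12 over all genes, and 66 of the 82 were below 0. The median was -0.47 at the pachytene stage, -0.94 in round and -0.60 in elongating spermatids. At all 3 stages 52 of the 82 (63.4%) were below 0, as were 16.7% of all genes. By exonic bases the median was -0.69 and 25 of them leaned to RNPs. Without both round libraries numbered 2, 21 leaned to RNPs. Without scaling the median turned positive, 0.27, and 18 were called polysome-leaning and 1 RNP-leaning, while the median of all genes was 0.78; 65 of the 82 then stood below that median, and 70 did with scaling. With quantile normalization the median was -0.52 and 7 were called.

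**Figure D3:**
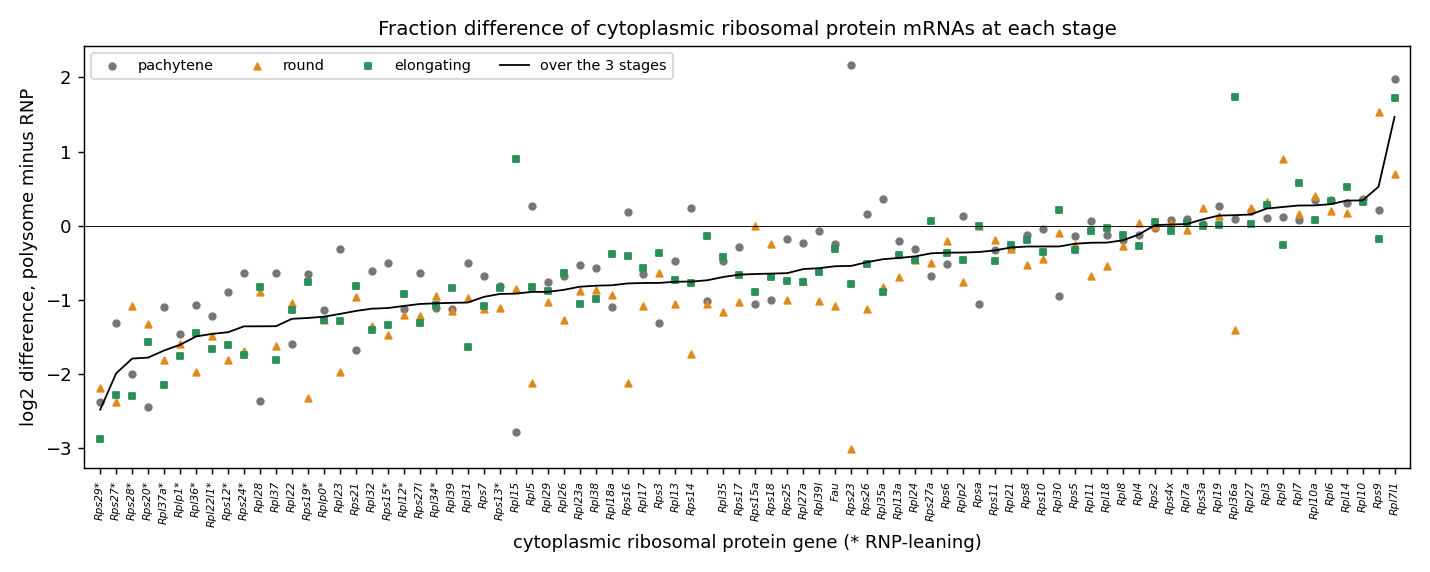
Log2 polysome minus RNP (vertical axis) of the 82 cytoplasmic ribosomal protein genes (horizontal axis, sorted by the value over the 3 stages, black line, names given for all but 1). Symbols give the difference within each stage, and asterisks mark the 16 RNP-leaning genes, which lie below 0 at every stage; *Rpl7l1* is the highest at 1.47.

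*Rps29*, a protein of the small subunit (chromosome 12, 70258709 to 70260173, minus strand, mm9), had the largest difference of the group. In scaled FPKM, *Rps29* was 1201, 864 and 1570 in the 3 RNP libraries of pachytene spermatocytes and 328, 363 and 98.3 in the 3 polysome libraries, 1228, 574 and 2499 against 344, 222 and 241 in round spermatids, and 6047, 2071 and 1397 against 476, 196 and 472 in elongating spermatids. Every RNP library was above every polysome library of its stage, and the difference was -2.48 ± 0.42 (SE, adjusted p = 0.00545) and -2.56 by exonic bases (adjusted p = 0.000781). A 7SL-like gene described with the chromosome 12 genes lies next to it on the other strand, and its part in the *Rps29* values was not tested. *Rpl37a* encodes a protein of the large subunit. In scaled FPKM, *Rpl37a* was 320.1, 232 and 460.3 in the 3 RNP libraries of pachytene spermatocytes and 182, 219.5 and 87.7 in the 3 polysome libraries, 337, 219 and 547 against 97.5, 85.9 and 110.2 in round spermatids, and 1483, 422 and 414 against 164, 122 and 149.8 in elongating spermatids. It also did not overlap within any stage and differed by -1.68 ± 0.32 (SE, adjusted p = 0.0123).

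*Rplp0*, whose product forms the stalk of the large subunit, differed by -1.22 ± 0.24 (SE, adjusted p = 0.014), with -1.13, -1.27 and -1.27 in pachytene, round and elongating cells. In scaled FPKM, *Rplp0* was 265, 187 and 361 in the 3 RNP libraries of pachytene spermatocytes and 93.4, 194 and 92.6 in the 3 polysome libraries, 245, 218 and 173 against 56.1, 149 and 76.6 in round spermatids, and 172, 150.1 and 188 against 80.2, 57.5 and 73.5 in elongating spermatids. Its lowest pachytene RNP library stood below the highest polysome library of that stage, so the groups overlapped there. *Rps28* differed by -1.79 ± 0.38 (SE, adjusted p = 0.0216) and *Rps20* by -1.78 ± 0.36 (SE, adjusted p = 0.0191). In both, the round libraries overlapped and the other stages did not. *Rps27* differed by -1.99 ± 0.45 (SE, adjusted p = 0.0313) and *Rpl22l1*, a close relative of *Rpl22*, by -1.46 ± 0.32 (SE, adjusted p = 0.0259).

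The other members past the threshold were *Rps12*, *Rps13*, *Rps15*, *Rps19*, *Rps24*, *Rpl12*, *Rpl34*, *Rpl36* and *Rplp1*, with differences from -0.92 in *Rps13* to -1.60 in *Rplp1*. All 16 except *Rps13* were also RNP-leaning by exonic bases, where *Rps13* was at -0.27 (adjusted p = 0.873). With each library left out in turn, *Rps29*, *Rpl37a*, *Rps28*, *Rps20* and *Rplp0* kept their calls in all 18 fits, and each of the other 11 lost its call without at least 3 and at most 16 single libraries, with an adjusted p of at most 0.112 and no change of sign. Among the most abundant of the group, *Rpl38* was at -0.81 ± 0.30 (SE, adjusted p = 0.175). Ribosomal proteins have many processed pseudogenes, and reads could have been divided among near-identical copies before assembly.

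The stretches printed here are those near the annotated starts of all 12 RNP-leaning ribosomal protein genes with a sequence, since a pyrimidine run at the very start of the mRNA is the known mark of this class. They are from RefSeq (GRCm38.p6), written 5′ to 3′ on the gene's strand, with the longest run of C and T within 50 bases of the start in capitals. The place of the run is counted from 1 at the annotated start, with negative numbers before it and no 0.
*Rps27* chr3:90213632-90213661 (-), run from -2 to 7: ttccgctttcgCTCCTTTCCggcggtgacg
*Rps28* chr17:33824567-33824596 (-), run from -21 to -17: tctgtcccgaggaTTCCTgggtaccgcgtg
*Rpl37a* chr1:72711274-72711303 (+), run from 24 to 36: cgcattgcgTCCCTTCCTCTTCggacttgg
*Rpl22l1* chr3:28805499-28805528 (+), run from 2 to 11: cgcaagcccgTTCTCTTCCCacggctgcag
*Rps12* chr10:23787182-23787211 (-), run from 9 to 19: ccaccgccggCCTTTTCCCCTgccgccgcc
*Rps24* chr14:24490698-24490727 (+), run from 39 to 50: ttggtcggcagtgagcggTCCTCTTTTCCT
*Rps19* chr7:24884612-24884641 (+), run from 40 to 50: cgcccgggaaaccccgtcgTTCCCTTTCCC
*Rplp0* chr5:115559466-115559495 (+), run from 12 to 18: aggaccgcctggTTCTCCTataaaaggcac
*Rps15* chr10:80292446-80292475 (+), run from 26 to 36: gcagcccgtaCTTCCTTTTCCgagtaaccg
*Rpl12* chr2:32961732-32961761 (+), run from 40 to 47: ggaggaggcaacggtgcaaCTTTCTTCggt
*Rpl34* chr3:130730393-130730422 (-), run from -13 to -6: ctgacgcgccgCCTTCCCTgacgtacttcc
*Rps13* chr7:116334161-116334190 (-), run from 13 to 18: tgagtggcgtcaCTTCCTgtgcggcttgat
The runs of *Rps28*, *Rplp0* and *Rps13* are shorter than 8 bases, and those of *Rpl37a*, *Rps24*, *Rps19*, *Rps15* and *Rpl12* lie 24 or more bases into the transcript and not at its annotated start. The run of *Rpl34* ends at -6, before the annotated start, and that of *Rps12* begins at 9, after it.
The same stretch is given for *Ybx1*, which leaned to RNPs, and for 4 polysome-leaning genes.
*Ybx1* chr4:119294492-119294521 (-), run from 6 to 10: gcccgtcccgccaTTCTCgctagttcgatc
*Psmd13* chr7:140882346-140882375 (+), run from -35 to -31: ggctagtgggacgCTCCCagcatgccccgc
*Psma2* chr13:14613249-14613278 (+), run from 20 to 25: gctgtgttccgaCTTTCCgggtaaagatgg
*Sdhd* chr9:50603847-50603876 (-), run from -15 to -9: gttgcctcaccgTTCTTTTacgcggggcgg
*Pnpla7* chr2:24976034-24976063 (+), run from 13 to 20: gcagttgtgggTTCCCCTTagaccacgtga
A run of at least 8 bases of C or T in that window of 100 bases, on the gene's strand, was present in 9 of the 12 RNP-leaning ribosomal protein genes with a sequence, in 40 of 49 ribosomal protein genes that were not called, in 3497 of the 11092 genes tested that had a sequence (31.5%), and in 35.7% of all 32851 promoters. It was present in 23 of 79 other RNP-leaning genes and in 38 of 135 polysome-leaning genes. Of the 82 ribosomal proteins, 61 had a sequence, which is under 80%, so that a comparison of called with uncalled ribosomal proteins is void. A run is a description of the letters, and RefSeq starts can be off by some bases.

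*Ybx1* encodes a Y-box protein that binds and packages mRNA, and its own mRNA leaned to RNPs (chromosome 4, 118950586 to 118967209, minus strand, mm9). In scaled FPKM, *Ybx1* was 169.9, 149 and 207 in the 3 RNP libraries of pachytene spermatocytes and 60.3, 65.4 and 57.5 in the 3 polysome libraries, 220.1, 74.7 and 176 against 33.2, 73.6 and 36.5 in round spermatids, and 129, 164 and 202 against 40.4, 29.7 and 30.8 in elongating spermatids. The RNP libraries were above the polysome libraries of their stage throughout, and in round spermatids the libraries numbered 2 of both fractions were nearly level. The difference was -1.80 ± 0.24 (SE, adjusted p = 0.00079) and -1.89 by exonic bases (adjusted p = 0.000293), with -1.50, -1.65 and -2.25 at the 3 stages, and the call was kept in all 18 fits that left out a library. The related mRNAs did not pass the threshold. *Ybx2*, the germ cell member of the family, was at 0.01 ± 0.31 (SE, adjusted p = 0.99), and *Csda*, now named *Ybx3*, at -0.44 ± 0.36 (SE, adjusted p = 0.55). Among 29 genes of mRNA storage and repression, *Ybx1* was the 1 called to RNPs (3.45%, against 0.792% of all genes) and 0 were called to polysomes. *Fxr1*, an abundant RNA-binding protein of this list, was at 0.25 ± 0.33 (SE, adjusted p = 0.732).

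**Figure D4:**
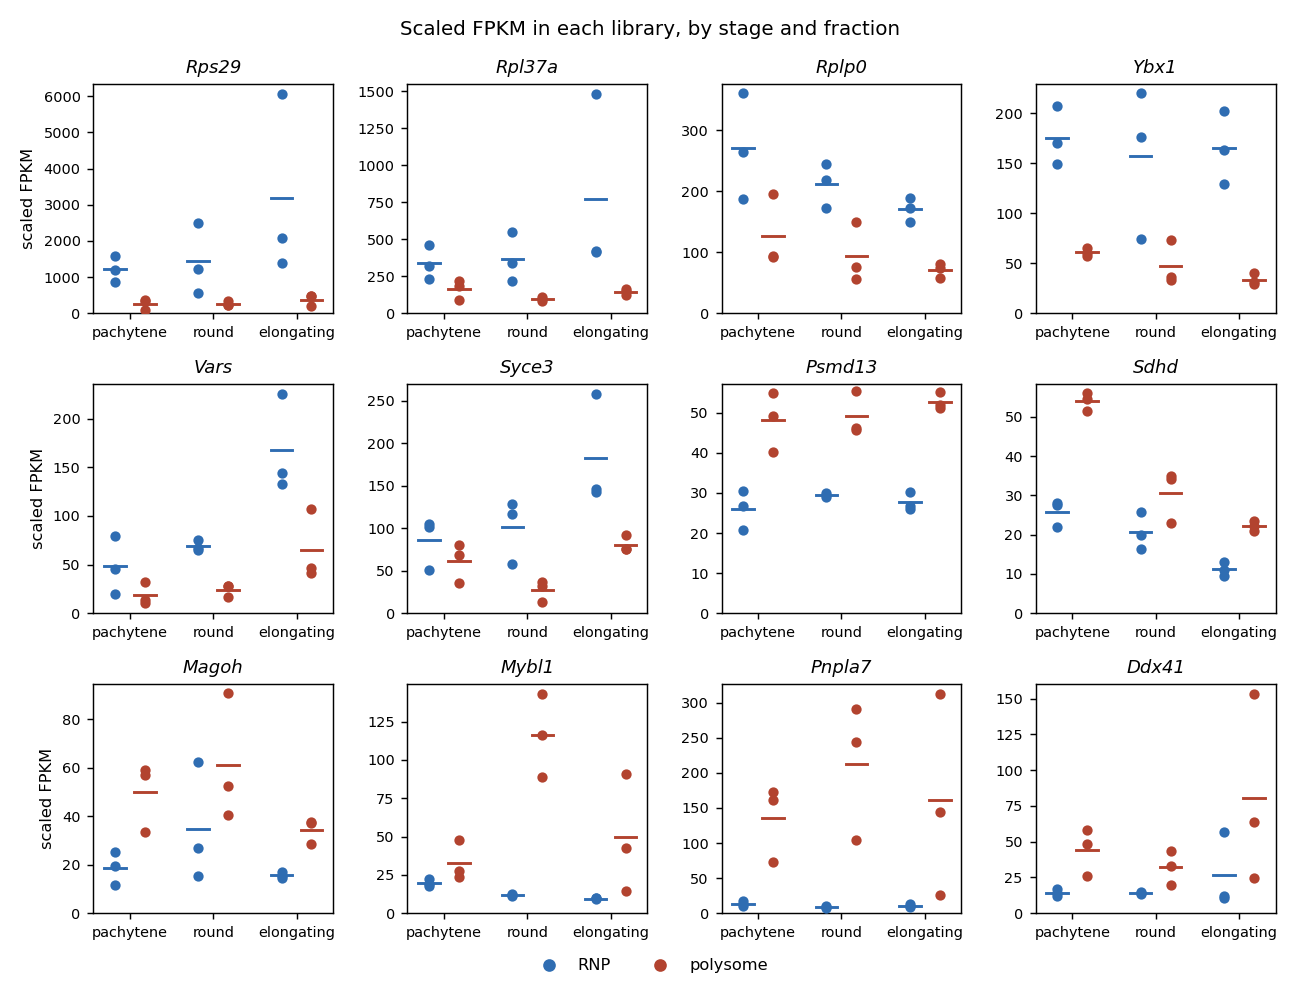
Scaled FPKM (vertical axes, from 0, with a scale of their own) of 12 genes in each of the 18 libraries, by stage (horizontal axes) and fraction; points are libraries and lines are means of 3. *Rps29*, *Rpl37a*, *Rplp0*, *Ybx1*, *Vars* and *Syce3* were higher in RNPs (blue), and *Psmd13*, *Sdhd*, *Magoh*, *Mybl1*, *Pnpla7* and *Ddx41* higher in polysomes (red).

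Genes of the mitochondria and of protein export were also called. *Ndufc1*, a subunit of respiratory complex I, differed by -1.41 ± 0.30 (SE, adjusted p = 0.0213), and *Uqcr10*, of complex III, by -1.27 ± 0.31 (SE, adjusted p = 0.0417). Of 84 respiratory chain genes these 2 (2.38%) leaned to RNPs and *Sdhd* (1.19%) to polysomes, and the median was 0.02. Of all genes 0.792% leaned to RNPs and 1.16% to polysomes. *Mrps21*, of the mitochondrial ribosome, was at -1.08 ± 0.26 (SE, adjusted p = 0.0417), while *Mrpl15* and *Mrpl38* of the same particle were at 0.79 and 0.87 and leaned to polysomes. The other 72 genes of that list were not called, so that 1.33% of its 75 genes leaned to RNPs and 2.67% to polysomes. *Sec61g*, the small subunit of the channel into the endoplasmic reticulum, had 52.4 to 313 (median 132) scaled FPKM in RNP and 13.6 to 91.3 (median 34.9) in polysome libraries, a difference of -1.61 ± 0.35 (SE, adjusted p = 0.0263). It was the 1 called gene of 31 endoplasmic reticulum genes (3.23%). By exonic bases *Ndufc1*, *Uqcr10*, *Mrps21* and *Sec61g* were also called, at -1.46, -1.47, -1.12 and -1.73, and *Mrpl38* was not, at 0.24. With single libraries left out, *Ndufc1* kept its call in 17 of 18 fits, *Sec61g* in 12, *Uqcr10* in 7, *Mrps21* in 5, *Mrpl38* in 4 and *Mrpl15* in 3. *Mrpl38* turned to -0.32 with whole intron chains.

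*Vars*, the tRNA synthetase for valine, was the 1 gene of 20 tRNA synthetases that leaned to RNPs (5%, against 0.792% of all genes). In scaled FPKM, *Vars* was 79.4, 45.02 and 20.3 in the 3 RNP libraries of pachytene spermatocytes and 32.1, 11.03 and 13.6 in the 3 polysome libraries, 75.2, 65.4 and 67.5 against 27.96, 16.9 and 27.98 in round spermatids, and 132, 225 and 144 against 107, 41.6 and 46.8 in elongating spermatids. It differed by -1.40 ± 0.28 (SE, adjusted p = 0.0163) and by -1.91 by exonic bases (adjusted p = 2.03e-05); its pachytene libraries overlapped, and with whole intron chains it turned to 0.31. *Syce3*, of the central element of the synaptonemal complex that holds paired chromosomes in meiosis, was at -1.16 ± 0.29 (SE, adjusted p = 0.0499), and *Msh5*, of meiotic crossing over, at -1.66 ± 0.34 (SE, adjusted p = 0.0197). *Sycp3*, of the lateral element of the same complex, leaned the other way, at 1.21 ± 0.28 (SE, adjusted p = 0.0324). Of 34 meiosis genes, these 3 were called, 2.94% to polysomes and 5.88% to RNPs, against 1.16% and 0.792% of all genes. With single libraries left out, *Msh5* kept its call in 18 of 18 fits, *Sycp3* in 9 and *Syce3* in 3. By exonic bases *Syce3* was at -1.32 (adjusted p = 0.0132), and *Msh5* and *Sycp3* did not pass, at -0.34 (adjusted p = 0.459) and 0.88 (adjusted p = 0.0879).

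*Gm15514*, a noncoding gene, and *Dennd1b*, an exchange factor for Rab GTPases, had the largest RNP-leaning differences of those without overlap, at -3.64 ± 0.51 (SE, adjusted p = 0.00101) and -3.05 ± 0.39 (SE, adjusted p = 0.000396). *Dennd1b* was 9.99 to 99.9 (median 27.00) scaled FPKM in RNP and 1.90 to 9.21 (median 3.28) in polysome libraries, and its difference by exonic bases was smaller, -0.90 (adjusted p = 0.0338). *Nfkb1*, a transcription factor of the NF-kB family, was at -2.39 ± 0.35 (SE, adjusted p = 0.00133) and -0.75 by exonic bases (adjusted p = 0.0216). In *Dennd1b* and *Nfkb1* the spliced transcripts covered 10.1% and 11.8% of the annotated length in RNPs, against 34.4% and 33.9% in polysomes. *Dennd1b* turned to 0.63 with whole intron chains.

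The other genes among the 14 largest were *Nphp4*, *Utp20*, *Helz*, *Arhgap10*, *Cep152*, *1810012P15Rik*, *Spata4* and *Nbeal1*, besides *Rps29*, *Rpl37a* and *Ybx1*. In *Cep152*, a centriole protein, and *Nbeal1* the sign turned by exonic bases, to 0.03 and 0.13, with spliced pieces that covered 9.94% and 8.13% of the annotated length in RNPs. *Nphp4*, *Utp20* and *Helz* were at -0.31, -0.60 and -0.26 by exonic bases and were not called. With whole intron chains *Nphp4*, *Utp20*, *Arhgap10* and *Nbeal1* turned to 0.66, 0.999, 0.46 and 0.40. *Arhgap10* kept its call in 5 of 18 fits that left out a library, and *Spata4* in 5. *Spata4*, a testis gene, was 121 to 448 (median 312) scaled FPKM in RNP libraries and 6.41 to 303 (median 91.6) in polysome libraries, at -1.75 ± 0.43 (SE, adjusted p = 0.0447) and -1.59 by exonic bases (adjusted p = 0.079).

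On the polysome side, no list had more than 3 called genes. Of 45 proteasome genes, which encode the protease that degrades ubiquitin-tagged proteins, 38 were above 0, at a median of 0.40, and 22 were above 0 at all 3 stages; 2 leaned to polysomes (4.44%, against 1.16% of all genes) and 0 to RNPs. Of all 14012 genes, 8175 were above 0, at a median of 0.12, and 3593 were above 0 at all 3 stages. The proteasome median was 0.50 with quantile normalization, 1.31 without scaling and 0.34 by exonic bases, against 0.07, 0.78 and 0.07 over all genes. *Psmd13*, of the lid of the regulatory particle, had close values within each fraction. In scaled FPKM, *Psmd13* was 30.6, 26.9 and 20.7 in the 3 RNP libraries of pachytene spermatocytes and 49.3, 40.1 and 55.01 in the 3 polysome libraries, 28.9, 30.1 and 29.4 against 46.3, 55.5 and 45.7 in round spermatids, and 26.8, 26.1 and 30.2 against 55.1, 51.1 and 51.8 in elongating spermatids. Polysome libraries were above RNP libraries at each stage without overlap, and the difference was 0.83 ± 0.16 (SE, adjusted p = 0.0113) and 0.56 by exonic bases (adjusted p = 0.0245). It turned to -0.51 with whole intron chains, and *Psma2* to -2.31. *Psma2*, of the core particle, was at 1.61 ± 0.34 (SE, adjusted p = 0.0219) and 0.76 by exonic bases (adjusted p = 0.202). The most abundant subunits did not pass, with *Psmb4* at 1.07 ± 0.41 (SE, adjusted p = 0.188), *Psmc3* at 0.40 ± 0.31 (SE, adjusted p = 0.514) and *Psme4*, of the testis-rich activator PA200, at 0.03 ± 0.41 (SE, adjusted p = 0.983).

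*Sdhd*, the membrane anchor of succinate dehydrogenase, was higher in polysomes on average at each stage. In scaled FPKM, *Sdhd* was 28.1, 27.4 and 21.9 in the 3 RNP libraries of pachytene spermatocytes and 51.6, 54.6 and 56.1 in the 3 polysome libraries, 16.5, 25.7 and 20.04 against 22.96, 34.9 and 34.1 in round spermatids, and 10.9, 9.58 and 13.1 against 22.1, 20.9 and 23.6 in elongating spermatids. Its difference was 0.84 ± 0.17 (SE, adjusted p = 0.0197) and 0.71 by exonic bases (adjusted p = 0.0102); the round libraries overlapped. Of 13 genes of nonsense-mediated decay, the pathway that destroys mRNAs with early stop codons, 3 (23.1%, against 1.16% of all genes) leaned to polysomes and 0 to RNPs (0.792% of all genes), and by exonic bases 2 and 0 did. Before adjustment, 5 members passed p under 0.05 with polysomes higher and 1 with RNPs higher. Of all 14012 genes, 2445 did in either direction. Of the called members, *Magoh*, of the exon junction complex, was at 1.13 ± 0.26 (SE, adjusted p = 0.0315) and the kinase *Smg1* at 1.35 ± 0.34 (SE, adjusted p = 0.0485). By exonic bases *Magoh* and *Smg1* were at 1.06 and 0.74, and with single libraries left out they kept their calls in 9 and 4 of 18 fits. The list's median was 0.21, and its abundant members *Smg5* and *Upf3a* were at -0.23 ± 0.29 (SE, adjusted p = 0.729) and -1.66 ± 0.50 (SE, adjusted p = 0.1).

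*Mybl1*, which encodes the meiotic transcription factor A-MYB, was higher in polysomes at each stage. In scaled FPKM, *Mybl1* was 22.4, 18.9 and 17.6 in the 3 RNP libraries of pachytene spermatocytes and 27.3, 23.4 and 47.7 in the 3 polysome libraries, 11.6, 12.3 and 10.96 against 116, 88.7 and 143 in round spermatids, and 9.76, 9.23 and 9.76 against 14.7, 42.8 and 91.1 in elongating spermatids. The difference was 1.92 ± 0.36 (SE, adjusted p = 0.0113), with 0.65, 3.19 and 1.91 at the 3 stages, and no stage overlapped. By exonic bases it was 0.81 (adjusted p = 0.00835), and with whole intron chains it turned to -1.20. *Pnpla7*, a lysophospholipase, was 25.7 to 312 (median 162) scaled FPKM in polysomes and 6.88 to 17.04 (median 9.81) in RNPs, a difference of 3.58 ± 0.39 (SE, adjusted p = 5.73e-05) that was 1.07 by exonic bases (adjusted p = 0.00524). Its spliced transcripts covered 14.8% of the annotated length in polysomes and 83.7% in RNPs. *Rtel1*, a helicase of telomeres, was at 2.38 ± 0.31 (SE, adjusted p = 0.000613) and 1.05 by exonic bases, with 29.2% and 79.6% of the length covered.

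The giant gene *Syne1*, of the link between nucleus and cytoskeleton, was assembled in a mean of 25.6 pieces per polysome library and 4.11 per RNP library, and differed by 3.85 ± 0.81 (SE, adjusted p = 0.0216) and by 1.12 by exonic bases (adjusted p = 0.00221). *Trappc8*, *Ptcd2*, *Ppip5k2*, *Slu7*, *2410089E03Rik* and *Rasa1* made up the other large polysome-leaning differences, from 1.57 to 1.99. *Ptcd2* and *Ppip5k2*, an inositol phosphate kinase, were also called by exonic bases, at 0.80 and 0.87. *Trappc8*, *Slu7*, *2410089E03Rik* and *Rasa1*, a regulator of Ras, were not, at 0.90, 0.55, 0.50 and 0.58. Leaving out single libraries cost *Ptcd2* its call in 12 of 18 fits. With whole intron chains *Trappc8*, *Ptcd2*, *Ppip5k2*, *Slu7* and *Rasa1* turned to -0.64, -0.15, -1.35, -0.96 and -2.03, and *Rtel1* to -1.71.

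Among RNA helicases, 3 of 53 (5.66%, against 1.16% of all genes) leaned to polysomes and 1 (1.89%, against 0.792%) to RNPs, and by exonic bases 1 and 0 did. *Ddx41* was at 1.38 ± 0.35 (SE, adjusted p = 0.0496) and 0.90 by exonic bases (adjusted p = 0.0012, with -0.45 by whole intron chains), *Dhx16* at 1.58 ± 0.35 (SE, adjusted p = 0.0285), and *Dhx32* at 0.88 ± 0.22 (SE, adjusted p = 0.0485); *Ddx11*, a helicase of DNA, was at -1.24 ± 0.30 (SE, adjusted p = 0.0411). By exonic bases *Dhx16*, *Dhx32* and *Ddx11* did not pass, at 0.61 (adjusted p = 0.0798), 0.68 (adjusted p = 0.0568) and -0.36 (adjusted p = 0.215), and with whole intron chains *Dhx16* turned to -1.91. Of 18 fits that left out a library, *Dhx16* kept its call in 9, *Ddx11* in 6, *Ddx41* in 4 and *Dhx32* in 2. Further genes that leaned to polysomes by both values, chosen after their values were seen, were *Prkaca*, the catalytic subunit of protein kinase A (0.83 ± 0.18, adjusted p = 0.0228), *Rab2a*, a GTPase of Golgi traffic (0.94 ± 0.18, adjusted p = 0.0123), *Ncbp2*, which binds the mRNA cap in the nucleus (0.78 ± 0.17, adjusted p = 0.0272), *Rad17*, of the DNA damage checkpoint (1.78 ± 0.37, adjusted p = 0.0211), and *Golga3*, a Golgi protein (0.90 ± 0.22, adjusted p = 0.0464). On the RNP side, chosen the same way, were the Mediator subunits *Med9* (-0.89 ± 0.22, adjusted p = 0.0468) and *Med29* (-1.21 ± 0.29, adjusted p = 0.0418), *Tomm6*, of the mitochondrial import channel (-1.51 ± 0.38, adjusted p = 0.0499), and *Atpif1*, the inhibitor of the mitochondrial ATP synthase (-0.999 ± 0.25, adjusted p = 0.0496). With single libraries left out, *Rab2a* kept its call in 18 of 18 fits, *Rad17* in 17, *Prkaca* in 14 and *Ncbp2* in 12, while *Golga3*, *Med9* and *Med29* kept it in 4 each, *Atpif1* in 3 and *Tomm6* in 1. With whole intron chains *Rad17* and *Golga3* turned to -1.36 and -0.53.

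A run of 7 neighbouring genes on chromosome 12 was called polysome-leaning in full. From *Lrr1* (chromosome 12, 70269801 to 70279997, plus strand, mm9) through *1110034A24Rik*, *9330151L19Rik*, *Pole2*, *Klhdc1* and *Klhdc2* to *Nemf* (chromosome 12, 70412531 to 70458153, minus strand), spliced transcripts were listed at 0 in all 9 RNP libraries and were present in 8 or 9 polysome libraries. No fold is given for them. *Klhdc2*, for example, was 31.1 to 324 (median 80.9) scaled FPKM in polysomes. Over the exons of *Klhdc2* and *Nemf*, unspliced pieces were listed in RNPs instead, with medians of 182 and 312 scaled FPKM per exonic base, against 0 and 0 in polysomes. By exonic bases *Klhdc2* was at -3.01 (adjusted p = 0.0948) and *Nemf* at -3.75 (adjusted p = 0.0269), so the direction turned. *Klhdc1* was at -1.18, *1110034A24Rik* at 0.07, *9330151L19Rik* at 0.34 and *Lrr1* at 0.66, and *Pole2*, a subunit of DNA polymerase epsilon, was the 1 of the 7 that stayed polysome-leaning, at 1.65 (adjusted p = 0.0081). Pachytene RNP library 1 held 0 transcripts in this stretch, so its exonic value was 0 for all 7 genes. The other RNP libraries were 16.6 to 28.9 in *1110034A24Rik*, against 9.82 to 21.8 in polysomes. In *Klhdc2* they were 119 to 660, against 9.53 to 100 in polysomes. The part of the empty library in these differences was not tested. The run as a whole was singled out after the values were seen.

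The 7 genes lie between 2 annotated small RNA genes of 297 bases each, AC099934.1 (chromosome 12, 70260282 to 70260578, plus strand, mm9) and AC157822.1 (chromosome 12, 70462172 to 70462468, minus strand), which differ from each other at 0 bases. Their sequence begins like that of 7SL, the RNA of the signal recognition particle, which is an RNP of the cytoplasm and holds no mRNA. Both begin as follows, which is shown so that the pair can be recognised.
AC099934.1 and AC157822.1: gccgggcgcggtggcgcacgcctgtagtcc
No library lists a transcript over either gene. Between them, 0 to 58 transcripts were assembled in each RNP library and 15 to 41 in each polysome library, and the highest FPKM of a single piece was 2059 to 30121 in the 8 RNP libraries with any and 66.3 to 672 in polysome libraries. *Rps29*, just outside the pair, was assembled in 9 of 9 libraries of both fractions. The part of 7SL in these calls was not tested.

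The mRNAs known for delayed translation, among them those of the protamines and transition proteins that replace histones, were below 0 in 5 of 6 genes tested, at a median of -1.10 (-0.16 without scaling), and 1 was called. *Prm1*, protamine 1, was 19390, 7955 and 6483 scaled FPKM in the RNP libraries of elongating spermatids and 0, 658 and 0 in the polysome libraries. In round spermatids it was 1990, 50.9 and 1759 against 0, 41.7 and 199, and in pachytene spermatocytes 967, 14.6 and 477 against 0, 1.55 and 46.9. The difference was -6.75 ± 1.46 (SE, adjusted p = 0.0236), and 4 polysome libraries were listed at 0. In those 4 the value over exonic bases was 660.4 and 1428 in elongating, 81.3 in pachytene and 114 in round cells, so the zeros are transcripts not assembled across the junction, and the difference of the spliced value is not a measure of level. From spliced transcripts, the fractions overlapped in pachytene and round cells. By exonic bases it was -3.15 (adjusted p = 0.079), and the call was lost without the elongating RNP library 1 or 2. *Prm2* was at -1.95 ± 0.92 (SE, adjusted p = 0.284), *Tnp1* at -1.34 ± 0.95 (SE, adjusted p = 0.482) and *Tnp2*, whose place in the gradient the study checked, at -0.85 ± 0.9996 (SE, adjusted p = 0.704). *Clu*, the other gene checked there, which is not one of the 6 and is also made by Sertoli cells, was at -0.54 ± 0.79 (SE, adjusted p = 0.768). Their levels spread widely between libraries of a group: *Prm2* was 9997, 1072 and 1501 in elongating RNPs. The elongating markers, which include all 6 genes of the list, also moved with the fractions, at 74.1 to 3122 in pachytene RNPs and 27.1 to 867 in pachytene polysomes, and their part in the pachytene values was not tested.

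Most of the other fixed lists held few called genes or none. Of 297 zinc finger genes, *Zfp62* (0.85 ± 0.20, adjusted p = 0.042) and *Zfp428* (2.50 ± 0.58, adjusted p = 0.0347) leaned to polysomes, and the median was 0.24. *Cnot6*, a deadenylase, was the 1 of 19 deadenylation genes (1.24 ± 0.28, adjusted p = 0.0285), *Kif3a*, a kinesin of the flagellum, the 1 of 35 kinesins (1.31 ± 0.22, adjusted p = 0.00458), and *Gpi1*, a glycolytic enzyme, the 1 of 16 glycolysis genes, towards RNPs (-1.21 ± 0.29, adjusted p = 0.0411). Of 19 piRNA pathway genes *Mybl1* was called. To polysomes the calls were 5.26% of the deadenylation and piRNA lists, 2.86% of kinesins and 0.673% of zinc finger genes, against 1.16% of all genes. To RNPs the call was 6.25% of the glycolysis list, against 0.792%. In lists this short 1 call already exceeds the share over all genes, the zinc finger list excepted. By exonic bases *Zfp62* passed, at 0.66 (adjusted p = 0.0175), and *Zfp428*, *Cnot6*, *Kif3a* and *Gpi1* did not, at 0.47, 0.34, 0.25 and -0.57 (adjusted p from 0.213 to 0.448). With whole intron chains *Kif3a*, *Cnot6* and *Gpi1* turned to -3.57, -0.97 and 0.17. Of 18 fits that left out a library, *Kif3a* kept its call in 18, *Cnot6* in 11, *Zfp428* in 8, *Zfp62* in 5 and *Gpi1* in 4. Spliceosome (53 genes), translation initiation (56), translation elongation and termination (12), ubiquitin conjugation (33), ubiquitin-specific proteases (44), acrosome (19), sperm tail (27), axonemal dynein heavy chains (14), microRNA pathway (13), cleavage and polyadenylation (18), cytosolic chaperones (23), testis histones (5), polyamines (9), small nucleolar RNA host genes (7) and nuclear noncoding RNAs (4) had 0 called genes in either direction by limma. Sertoli (14), Leydig (7), peritubular (5), macrophage (6), spermatogonia (7), erythroid (1) and round spermatid (8) markers had 0 as well; of 9 pachytene and 9 elongating markers, *Sycp3* and *Prm1* were called. The 22 lists with 0 called genes held 374 genes, of which, before adjustment, 39 passed p under 0.05 with polysomes higher and 23 with RNPs higher, and 5 and 4 were called by exonic bases. Over all 14012 genes tested, 2445 passed that p in either direction. Of the same 14012 genes, 157 were called to polysomes and 199 to RNPs by exonic bases.

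Lengths of the called genes are given as a description, with no test. The 47 genes that leaned to RNPs by both values had a median coding length of 435 bases (43 with an annotated coding sequence), against 1410 over all genes tested, a median 3′ UTR of 283 bases against 786, and a median of 4 exons against 9. Without ribosomal proteins, the remaining 32 had medians of 772.5 bases of coding sequence and 410.5 of 3′ UTR. The 66 genes that leaned to polysomes by both values had a median coding length of 1558 bases, a 3′ UTR of 971.5 and 13 exons. Of 1661 genes in the shortest eighth by coding length (105 to 588 bases), 23 leaned to RNPs and 7 to polysomes by both values, and of 1655 in the longest eighth 1 and 14 did. From spliced transcripts alone, 30 leaned to RNPs and 16 to polysomes in the shortest eighth, and 33 and 36 in the longest. Lengths are those of the annotation, and all 111 RNP-leaning genes of the spliced value had a median coding length of 1696.

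**Figure D5:**
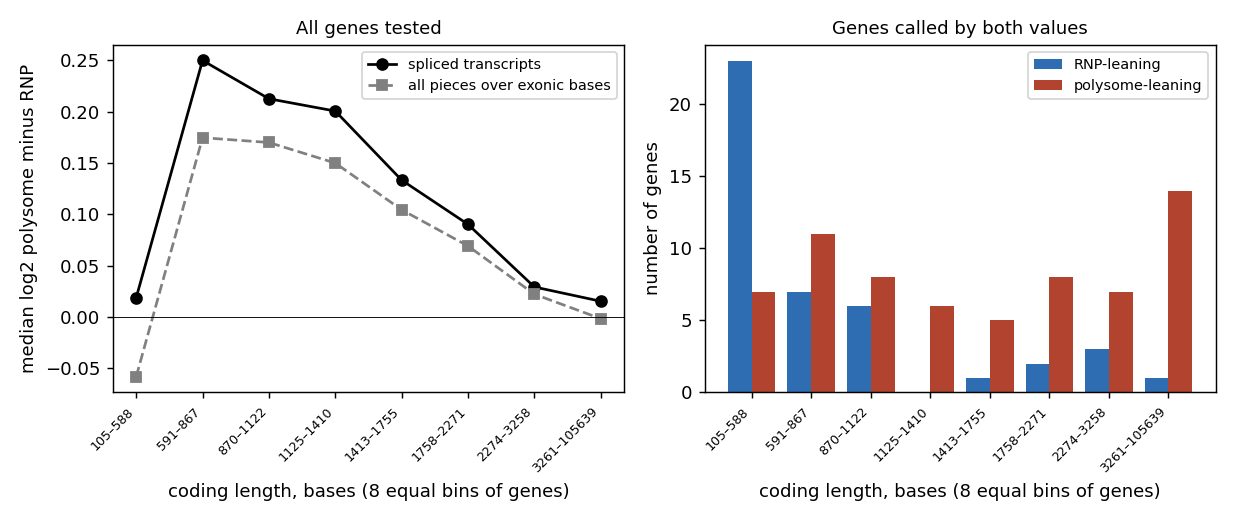
Left, median log2 polysome minus RNP of all genes tested (vertical axis) in 8 equal bins of coding length in bases (horizontal axis), from spliced transcripts (black) and exonic bases (grey); the medians are 0.02 in the shortest bin, 0.25 in the next and 0.02 in the longest for spliced transcripts. Right, number of genes called by both values in the same bins, with 23 RNP-leaning genes (blue) in the shortest bin and 14 polysome-leaning genes (red) in the longest.

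Over all genes, contrasts by length between the fractions did not pass the exact permutation test within cell types, which leaves the library numbers out. In each library the mean log2 level of the genes with a coding length of at least 2271 bases (the top 25%) was set against that of genes with at most 867 bases (the bottom 25%). This contrast was -0.01 ± 0.29 (SD, n = 9) in polysomes and 0.03 ± 0.34 in RNPs, a difference of -0.04 (exact permutation within cell types, two-sided p = 0.791, smallest possible p 0.00025). The differences were -0.22 in pachytene, 0.21 in round and -0.12 in elongating cells. A second contrast took 3′ UTR length. The study measured this length on assembled transcripts enriched in either fraction of a cell type, and reported shorter ones in RNPs. The contrast here uses the annotated length of a gene, over all genes. It does not measure transcript isoforms and cannot decide on that report. Genes with at least 1731 bases against genes with at most 282 gave -0.73 ± 0.38 in polysomes and -0.79 ± 0.36 in RNPs, a difference of 0.06 (exact permutation p = 0.692). By stage it was 0.02, 0.17 and -0.02. By exonic bases the coding contrast was 0.02 (exact p = 0.915) and the 3′ UTR contrast 0.15 (exact p = 0.422), the latter positive at all 3 stages (0.11, 0.26 and 0.10). Taken over same-number pairs, the 3′ UTR contrast was higher in polysomes in 6 of 9 from spliced transcripts (exact sign-flip p = 0.32). By exonic bases, added after the values were seen, 8 of 9 pairs were higher (exact sign-flip p = 0.0508). The labels do not say that equal numbers are pairs. In 8 equal bins of 3′ UTR length, the median exonic difference rose from 0.008 in the shortest bin to 0.15 in the longest. From spliced transcripts it was 0.06 in the shortest, 0.10 in the longest and at most 0.16 between them. No test was made of these bins.

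The fraction difference itself differed between stages in 3 of 14012 genes (0.0214%) by the limma test over stages, and 397 had an unadjusted p under 0.05. *AY358078* was 1086, 345 and 1249 scaled FPKM in pachytene polysomes and 13.4, 13.5 and 19.5 in pachytene RNPs, and between 2.90 and 10.1 in the 12 libraries of round and elongating spermatids. By exonic bases its pachytene gap was smaller, with 57.4, 26.0 and 56.4 in polysomes and 9.36, 3.85 and 6.42 in RNPs. *Myo3a* and *Rltpr* were listed in the 3 elongating RNP libraries and at 0 in the other 15, so they passed the filter only through the group in which they were high, and their p is not a test of a stage difference.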

How the data were processed

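RNA of polysome and RNP fractions from 3 cell types was sequenced in 18 libraries (TruSeq stranded total RNA, single- and paired-end). The authors trimmed reads with FASTX, mapped them with TopHat2 on mm9, and ran Cufflinks on each library alone (versions not given in the sources used here). The deposited files hold assembled transcripts with their FPKM as text in column 9. A read count is not given, so the depth in reads is unknown.

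A gene value was the sum of FPKM over transcripts that share strand and at least 1 splice junction with a gene of the GENCODE vM1 annotation (mm9). Values were scaled by the median ratio over genes listed in all libraries at FPKM over 1. Genes that reached FPKM 1 in 3 or more libraries were kept, and log2(scaled FPKM + 1) was tested with limma 3.58.1 (R 4.3.3, trend, Benjamini-Hochberg adjustment) for polysome against RNP with cell type as a term. A fold on this scale understates changes of low genes. The script was tested on simulated data with 200 changed genes. Length contrasts used an exact permutation test. Other steps used Python 3.11.15.

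Genes named are the 14 largest differences in each direction among called genes without overlap in any stage and a mean of at least 10 scaled FPKM in the higher fraction, the called and the most abundant members of the lists, and genes the study checked or discusses; exceptions are marked. Some genes are not reported here. The members and lists were chosen with earlier results of these data known. Alternatives in scaling, filter, pseudocount, matching, model and libraries are given at the end.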

Additional observations from a re-analysis of the deposited data

Results flagged for a closer look

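The fraction difference of 3 genes differed between stages in a limma test over the 3 stage differences. *AY358078* had differences of 5.58, -0.26 and -0.78 in pachytene, round and elongating cells (adjusted p = 0.0003065). It was 1086, 345 and 1249 scaled FPKM in pachytene polysomes and 13.4, 13.5 and 19.5 in pachytene RNPs, without overlap, and the groups of the later stages lay between 2.90 and 10.1. By exonic bases its pachytene values were 57.4, 26.0 and 56.4 in polysomes and 9.36, 3.85 and 6.42 in RNPs, a smaller gap. *Myo3a*, an unconventional myosin, had differences of 0, 0 and -2.73 (adjusted p = 0.04987), and *Rltpr*, an actin regulator, 0, 0 and -2.99 (adjusted p = 0.04987). Both were listed in the 3 RNP libraries of elongating spermatids alone, *Myo3a* at 7.34, 5.15 and 4.69 and *Rltpr* at 9.78, 8.39 and 3.99 scaled FPKM, and at 0 elsewhere. They passed the filter on low values only through that group, so their p is not a test of a stage difference.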

How the results depend on the processing

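Polysome-leaning genes, RNP-leaning genes and genes whose difference differed between stages numbered 163, 111 and 3. In the same order, the counts were found without scaling (4449, 37 and 2), with quantile normalization (96, 56 and 1), with a pseudocount of 0.1 (242, 122 and 4), without a filter (173, 98 and 9), with a minimum FPKM of 5 (144, 120 and 1), with FPKM of at least 1 in all 18 libraries (168, 166 and 1). Further counts were found with whole intron chains (13, 20 and 7), with single-exon genes (158, 115 and 4), with length-weighted sums (142, 160 and 1), as the mean of 3 within-stage differences (127, 84 and 3), with robust empirical Bayes (127, 92 and 3), with library weights (633, 440 and 11). Others were found without both round libraries numbered 2 (424, 240 and 8), without pachytene cells (31, 12 and 1), without round spermatids (43, 27 and 3), without elongating spermatids (6, 1 and 1), by exonic bases (187, 289 and 5), by exonic bases without both round libraries numbered 2 (626, 573 and 13). The last 2 of these were chosen after the data were examined. Fits without a cell type have fewer libraries, and the cause of the other changes was not tested.

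With a replicate block the counts were 456, 307 and 1, and 162 of the 163 and 109 of the 111 genes were among them. The correlation of the deviations of same-numbered polysome and RNP libraries was 0.383, 0.329, -0.0574 in pachytene, 0.551, 0.675, 0.193 in round and 0.0623, 0.028, 0.0163 in elongating cells. Libraries of different numbers were at -0.46 to 0.203 in pachytene, -0.627 to 0.349 in round and -0.0381 to 0.0107 in elongating cells. By a rule of over 0.1 for every same-number value, the numbers are not shown to pair the libraries over the series, although all 3 round values passed. The main counts leave the numbers out. With the block, 26 ribosomal proteins leaned to RNPs. Over same-number pairs the 3′ UTR contrast was higher in polysomes in 6 of 9 pairs (exact sign-flip permutation p = 0.32), and by exonic bases, an alternative added after the values were seen, in 8 of 9, at a mean of 0.15 (exact p = 0.0508, smallest possible 0.00391). The coding contrast by exonic bases was then 0.0187 (exact p = 0.902).

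With single libraries left out, 74 to 274 genes leaned to polysomes, 45 to 190 to RNPs, and 1 to 6 differed between stages. The lowest counts came without elongating RNP library 2 (74 and 48), elongating RNP library 1 (80 and 45) and elongating polysome library 2 (78 and 45), and the highest without round RNP library 2 (274 and 190). The counts also moved by over 1.5 times without elongating polysome 1 (70 to RNPs) and 3 (101 to polysomes and 63 to RNPs), pachytene polysome 1 (94 and 62) and 3 (91 and 49), pachytene RNP 3 (71 to RNPs), round polysome 1 (63 to RNPs) and 3 (81 and 51) and round RNP 3 (89 and 55). The coding length contrast ranged from -0.117 to 0.0693 and the 3′ UTR contrast from -0.045 to 0.151. The coding contrast turned positive without both round libraries numbered 2 (0.000665), without pachytene cells (0.0519), by exonic bases (0.0187) and by exonic bases without both round libraries (0.0505). The 3′ UTR contrast turned negative with FPKM of at least 1 in all 18 libraries (-0.0105) and without round spermatids (-0.000834). Robust fits, library weights and within-stage means give no separate contrast.

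The log2 difference of these named genes changed sign. Without scaling, *Rps13* was 0.0321, *Tnp2* 0.0847, *Clu* 0.36, *Rpl38* 0.15, *Csda* 0.51, *Smg5* 0.71. With whole intron chains, *Rtel1* was -1.71, *Trappc8* -0.64, *Mybl1* -1.20, *Ptcd2* -0.15, *Ppip5k2* -1.35, *Slu7* -0.96, *Rasa1* -2.03, *Dennd1b* 0.63, *Nphp4* 0.66, *Utp20* 0.999, *Arhgap10* 0.46, *Nbeal1* 0.40, *Rps19* 0.58, *Mrpl38* -0.32, *Vars* 0.31, *Psma2* -2.31, *Psmd13* -0.51, *Dhx16* -1.91, *Ddx41* -0.45, *Kif3a* -3.57, *Cnot6* -0.97, *Gpi1* 0.17, *Psmc3* -1.40, *Ybx2* -0.22, *Fxr1* -0.98, *Upf3a* 0.90, *Rad17* -1.36, *Golga3* -0.53. With length-weighted sums, *Cep152* was 0.0692, *Ybx2* -0.19. With library weights, *Ybx2* was -0.00226. Without pachytene cells, *Ybx2* was -0.0547, *Smg5* 0.00409. Without round spermatids, *Psme4* was -1.37e-05. Without elongating spermatids, *Psme4* was -0.11. By exonic bases, *Klhdc2* was -3.01, *Klhdc1* -1.18, *Cep152* 0.0302, *Nbeal1* 0.13, *Ybx2* -0.16. By exonic bases without both round libraries numbered 2, *Klhdc2* was -2.87, *Klhdc1* -1.03, *Cep152* 0.16, *Nbeal1* 0.18, *Ybx2* -0.12.

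With single libraries left out, values that changed sign ranged in *Psme4* from -0.14 to 0.22, *Ybx2* from -0.14 to 0.21. No called gene among those named changed sign when a single library was left out; 33 of 76 kept their calls in all 18 fits.

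The files give FPKM and no read counts, so the depth in reads is unknown and no counting error can be given. The coverage listed per unit of FPKM, which is 1 value for a library, was 1.20 to 2.26 in RNP and 1.53 to 2.20 in polysome libraries. A transcript absent from a file is listed at 0, also where assembly failed. With 3 libraries a group, purifications and libraries cannot be told apart.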

Other observations

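Noncoding genes were a small share of the calls and also of the 14012 genes tested. Of 254 lincRNA genes tested, 1 leaned to polysomes and 1 to RNPs, and of 423 genes annotated as processed transcripts 1 leaned to polysomes and 4 to RNPs. Of 13309 protein-coding genes, 161 leaned to polysomes and 106 to RNPs. Over all genes 1.16% leaned to polysomes and 0.792% to RNPs, and noncoding counts of 1 to 4 are too few to set against these shares. On chromosome X, which is silenced in meiosis, 1 of 541 genes leaned to polysomes (0.185%) and 1 to RNPs (0.185%), against 1.16% and 0.792% of all genes. On chromosome 12, 10 of 477 leaned to polysomes (2.1%), and the 7 neighbours described above were among them. No test was made of these shares.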
